A study of Mus musculus with 4 samples.

Results

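Adult mouse dorsal root ganglia were profiled for MEIS binding to DNA by ChIP-seq, in which chromatin is pulled down with an antibody and its DNA sequenced. Peaks, the regions with more fragments than the input, were listed by both generations of one caller, MACS 1.4 and MACS2. The older version, MACS 1.4, listed 771 adult peaks. Of these, 416 overlapped no MACS2 peak by even 1 bp, and they are described here. They were chosen by the overlap of these lists, so 54.0% of the adult MACS 1.4 list was selected by the rule itself, and nothing about binding is read from that share. The other 355 peaks, called both-caller peaks below, held 1 or more of the 375 adult MACS2 peaks and serve as the comparison. Position is that of the peak's middle.

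The ganglia, which hold the cell bodies of sensory neurons together with their glia, came from C57BL/6 mice, both embryos at E16 (embryonic day 16) and adults. The adult lists compare 1 library immunoprecipitated with an antibody labelled as recognising Meis1, Meis2 and Meis3 with 1 adult input library, which was not precipitated. The E16 lists, used here only to look up the adult peaks, come from the same pair of libraries at E16. No genotype, allele or treatment is named in the labels, and the age of the adults, the number of animals and any pooling of ganglia are not given in the sources used here. Sensory neurons are the labelled cell type, but the tissue is the ganglion and no sorting is described. A list of peaks cannot show which of its cells gave the signal. With 1 library per group nothing below has a replicate check, and no test between conditions was made. Percentages of peaks carry exact (Clopper-Pearson) 95% binomial intervals, which cover counting error only.

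MEIS proteins are transcription factors of the TALE class of homeodomain proteins. They bind DNA next to partners of the PBX family, often together with HOX proteins, and are best known for work in limb, blood and nervous system development. In the peripheral nervous system MEIS factors are expressed in sensory neurons, and Meis2 is needed for the maturation of neurons that serve touch. Such factors act at promoters, at the start of genes, and at enhancers, which can lie inside genes or far from them, so the position of a peak is given below beside the gene it is nearest to, without assigning it to that gene.

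The 3 promoter sequences and the 1 microRNA that these peaks reached are shown first, because they are the peaks' overlaps with the sequences of the RefSeq tables used here, which are not complete. RefSeq promoter windows hold up to 250 bases before and 50 bases after a transcript start, on assembly GRCm38.p6, whose chromosome coordinates are those of mm10. Of 32817 such windows, 3 were overlapped by one of the 416 peaks and 1 by a both-caller peak. Each is printed 5′ to 3′ on the gene's own strand, with the bases inside the peak in capitals. Trim24 encodes a chromatin-binding co-regulator of transcription, and its printed window, chr6:37870561-37870810 on the plus strand, ends 1 base before the transcript start. Gm40226 and Gm15511 are long noncoding RNA genes, with windows at chr4:109550709-109551008 on the plus strand and chr9:69364198-69364497 on the minus strand.
Trim24: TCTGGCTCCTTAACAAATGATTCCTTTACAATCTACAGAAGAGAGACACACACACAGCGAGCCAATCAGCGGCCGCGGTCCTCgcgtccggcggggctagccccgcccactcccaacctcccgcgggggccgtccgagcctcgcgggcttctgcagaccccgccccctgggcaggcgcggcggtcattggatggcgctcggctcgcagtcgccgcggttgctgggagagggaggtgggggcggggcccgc
Gm40226: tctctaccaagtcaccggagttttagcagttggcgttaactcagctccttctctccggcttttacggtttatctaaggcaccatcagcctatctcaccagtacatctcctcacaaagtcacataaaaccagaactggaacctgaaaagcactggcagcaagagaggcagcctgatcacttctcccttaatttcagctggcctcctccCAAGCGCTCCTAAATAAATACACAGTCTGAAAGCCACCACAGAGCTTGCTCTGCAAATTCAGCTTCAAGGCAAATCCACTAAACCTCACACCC
Gm15511: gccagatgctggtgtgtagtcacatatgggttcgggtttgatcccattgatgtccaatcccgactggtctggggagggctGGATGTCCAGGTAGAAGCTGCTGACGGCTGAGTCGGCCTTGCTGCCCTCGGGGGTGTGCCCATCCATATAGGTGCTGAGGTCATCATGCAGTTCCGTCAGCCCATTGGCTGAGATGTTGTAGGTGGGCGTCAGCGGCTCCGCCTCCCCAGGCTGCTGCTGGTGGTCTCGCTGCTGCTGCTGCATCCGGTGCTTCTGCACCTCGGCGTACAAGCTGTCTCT

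The Trim24 peak covered bases 1 to 83 of its window, the part farthest from the transcript start, and had a score of 62.65. The Gm40226 peak covered 93 bases, from 208 to 300, which include the transcript start, with a score of 52.19. The Gm15511 peak covered 220 bases, from 81 to 300, with a score of 51.50. That peak also lay inside Rora on the opposite strand. The G and C content was 69.6% in the Trim24 window, 48.0% in that of Gm40226 and 60.3% in that of Gm15511. The core letters recognised by MEIS proteins, TGACAG, or CTGTCA when read on the other strand, were in none of the 3 windows. The composite PBX and MEIS letters TGATTGAC, or GTCAATCA on the other strand, were in none either. TGACAG was present in 19.2% of all 32817 windows and TGATTGAC in 0.771%. The absence of these letters says only that they are not in these windows, and the full sequence of the peaks was not analysed here.

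A single peak, at chr6:122831235-122831516 with a score of 72.86, covered the whole hairpin of the microRNA gene Mir7231, chr6:122831377-122831437 on the plus strand. Its middle was 2 bp from the 5′ end of the hairpin, inside the protein-coding gene Foxj2. Of 1005 mouse hairpins in the RefSeq table, this was the 1 that any of the 416 peaks overlapped, and it was chosen for printing after its value was seen. In the hairpin the mature arms are in capitals. In the mature forms the seed, bases 2 to 8, is in capitals.
Mir7231 hairpin: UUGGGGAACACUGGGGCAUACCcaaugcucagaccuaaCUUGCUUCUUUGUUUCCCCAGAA
mmu-miR-7231-5p: uUGGGGAAcacuggggcauacc
mmu-miR-7231-3p: cUUGCUUCuuuguuuccccagaa

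The scores of these peaks were weak. The MACS 1.4 score is the −log10 of the authors' p-value multiplied by 10, so a score of 50 stands for a p-value at the caller's usual limit. It belongs to the contrast by which the peaks were selected and is given as a description. The 416 scores ran from 50.2 to 190.1 with a median of 71.7 and quartiles of 63.7 and 77.8. Both-caller peaks ran from 55.7 to 3100 with a median of 97.5. A score of 80 or more was held by 86 of the 416 peaks (20.7%) and by 279 of the both-caller peaks (78.6%). A score of 100 or more was held by 29 (6.97%) and 173 (48.7%), and one of 150 or more by 5 (1.20%) and 101 (28.5%). The groups overlapped broadly all the same. The median of the both-caller peaks was reached by 34 of the 416 peaks, 27 both-caller peaks lay below the median of the 416, and 39 of the 416 lay below the lowest both-caller score.

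The callers' values are not interchangeable, and no MACS2 p-value is given for the 416 peaks. The lowest −log10 p in the adult MACS2 list was 5.53, which multiplied by 10 is 55.3, and 380 of the 416 MACS 1.4 scores were above that number. This does not show that those peaks would pass the p-value limit of MACS2. The MACS2 list also had a lowest −log10 q of 1.95 and a lowest fold enrichment of 2.94. In the other direction, 7 of the 375 MACS2 peaks had no MACS 1.4 peak.

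**Figure D1:**
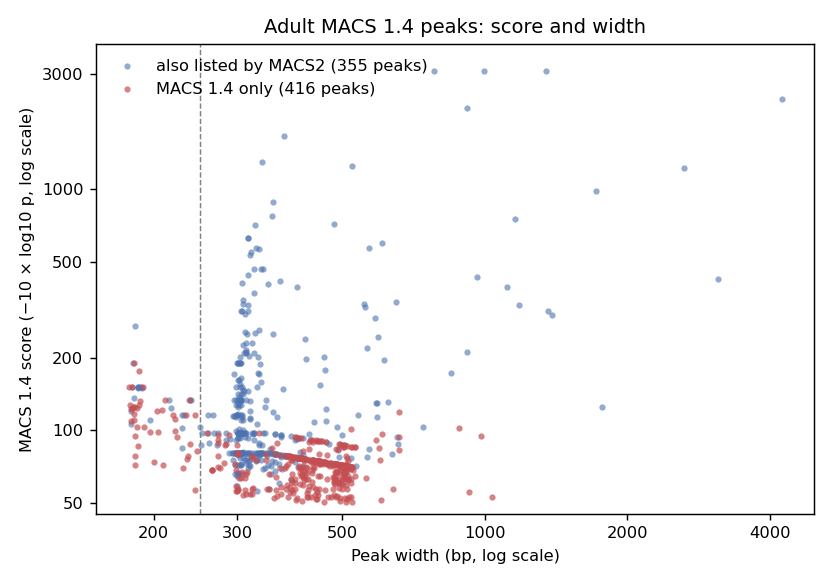
Score against width for all 771 adult MACS 1.4 peaks, both on log axes, with the 416 peaks listed by MACS 1.4 only in red and the 355 both-caller peaks in blue. The dashed line marks 250 bp. The quartiles of the red points are 381.8 and 495.0 bp in width and 63.7 and 77.8 in score. Many lie in bands that fall with width, and a separate group of narrow red points reaches 190.1.

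The plot of score against width shows bands, and from these bands the number of fragments counted by the caller was inferred for many of the peaks. No source used here gives the depth. A search made after seeing the bands found that 1 common background of 0.000398 fragments per bp, applied to the width of the peak or to 350 bp where the peak was narrower, gave the exact scores of 318 of the 771 adult peaks as Poisson probabilities of more than a whole number of fragments, within 0.02 of a score unit. Had the caller counted "at least" in place of "more than", every number below would be 1 higher. Of the 416 peaks, 165 (39.7%, interval 34.9% to 44.5%) lay on this background. The whole number was 5 for 128 of them (77.6%), 6 for 25 (15.2%), 7 for 6, 8 for 2, 9 for 3 and 11 for 1. At the median width of 440 bp the common background amounts to 0.175 fragments. By this fit, most peaks that could be given a number rested on 5 fragments where less than 1 was expected. Fragment numbers given for single peaks below were inferred in the same way.

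With the number of fragments fixed at 5, the score of these peaks ran from 70.26 to 80.47 as the width ran from 523 to 302 bp, so differences in score within that range reflect width alone. For 6 fragments the scores ran from 85.04 to 97.49. Of the both-caller peaks, 153 (43.1%, interval 37.9% to 48.4%) lay on the same background, with a median of 6 and a highest number of 72 fragments. In 55 of those 153 (35.9%) the number was also 5, and these peaks were 293 to 409 bp wide. The same 5 fragments thus gave peaks of up to 523 bp when MACS 1.4 alone listed them. For the remaining 251 of the 416 peaks, whose scores ran from 50.17 to 176.39 with a median of 66.80, the number of fragments was not resolved.

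The 416 peaks were 177 to 1038 bp wide, with a median of 440 bp, and both-caller peaks 179 to 4236 bp, with a median of 320 bp. A limit of 250 bp, chosen after seeing these values, held 42 of the 416 peaks (10.1%, interval 7.37% to 13.4%) and 22 of the both-caller peaks (6.20%, interval 3.92% to 9.23%). The 42 narrow peaks had a median score of 113.2, against 71.2 for the other 374. In the both-caller peaks the medians were 133.2 up to 250 bp and 97.5 above. Among the 416, the 42 narrow peaks made up 26 of the 29 with a score of 100 or more and 19 of the 20 highest. Of the 42, 23 lay inside a protein-coding gene, 4 within 1000 bp of a protein-coding gene boundary, and 1 overlapped an E16 peak. Over all 416 these shares were 46.9%, 3.85% and 4.33%. Of the 22 narrow both-caller peaks, 1 overlapped an E16 peak.

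The highest scores belonged to these narrow peaks. The highest, 190.11 from 11 fragments, was at chr2:81471022-81471203, 579 kb from Zfp804a, a zinc finger gene. Next came a peak of 176.39 at chr11:70048237-70048422, 580 bp outside the 5′ end of Asgr1, which encodes a subunit of the liver's asialoglycoprotein receptor. A score of 151.77, from 9 fragments, was shared by 3 peaks. One of them was 4.75 kb from Uchl3, a ubiquitin hydrolase gene, and another inside Chd1, a chromatin remodeller gene. Peaks of 133.21, from 8 fragments, lay inside Vwc2l and inside the olfactory receptor gene Olfr1353.

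The next 8 scores ran from 131.90 down to 122.72, and their peaks were also narrow. Those at Wwox (131.90), Fstl4 (127.42), Ppp2r2a (123.88) and Iqgap1 (123.38) lay inside the named gene. Iqgap1 encodes a scaffold of the actin cytoskeleton and Ppp2r2a a regulatory subunit of a protein phosphatase. The peaks nearest to Kdm4c (126.60), Gpat3 (125.35), Gm15501 (124.47) and Fbxo33 (122.72) lay 218, 257, 1205 and 433 kb from those genes. None of the 15 highest peaks had an E16 counterpart. The share over all 416 was 4.33%, so none in 15 is not read as a difference.

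The lowest scores stood at the caller's limit. A peak inside Pex14, which serves import into peroxisomes, had 50.17, and one inside Cdh6, a cadherin gene, had 50.44. The peak nearest to Stmn2, a stathmin gene of growing neurons, had 50.46 and lay 264 kb from it. The peak inside Ngfr had 50.68, and that nearest to Hdac4 had 50.89 at 27.9 kb.

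The middle of 195 of the 416 peaks lay inside a protein-coding gene (46.9%, interval 42.0% to 51.8%), beside 149 of the both-caller peaks (42.0%, interval 36.8% to 47.3%) and 44.6% of the whole adult MACS 1.4 list. Protein-coding genes make up 38.2% of the sequence between the first and last gene of each chromosome, a figure that takes in stretches where short reads cannot be placed. Inside any annotated gene lay 224 of the 416 (53.8%, interval 48.9% to 58.7%) and 185 both-caller peaks (52.1%, interval 46.8% to 57.4%), with 46.1% of the sequence. More than 100000 bp from any gene lay 24 (5.77%, interval 3.73% to 8.46%) and 17 (4.79%, interval 2.81% to 7.56%), with 9.57% of the sequence. The median score was 71.3 inside protein-coding genes and 72.1 outside them.

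**Figure D2:**
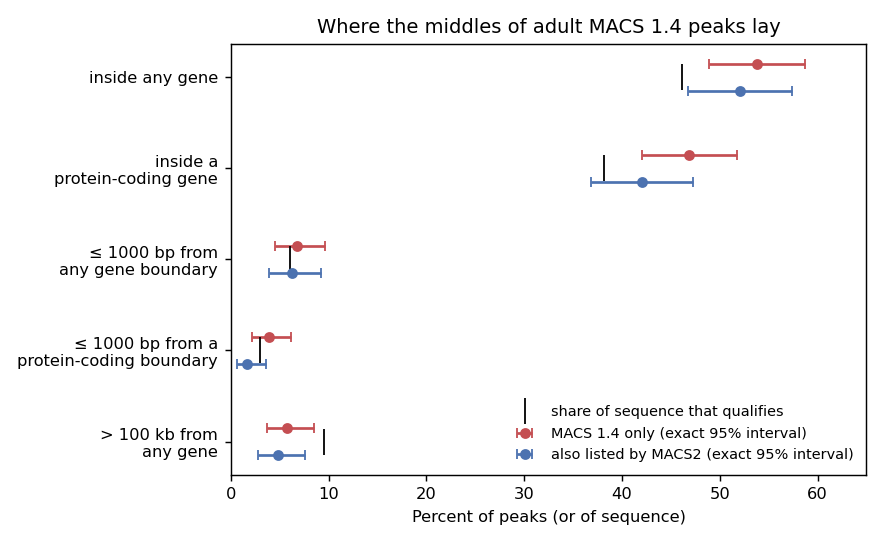
Share of peak middles in each kind of position, in percent, for the 416 peaks listed by MACS 1.4 only (red) and the 355 both-caller peaks (blue), with exact 95% intervals, and the share of sequence that qualifies (black bars). The red and blue intervals overlap in all 5 rows, with the widest relative gap at protein-coding boundaries (3.85% and 1.69%).

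The genes entered were long ones. The 195 peaks made 200 pairs with 196 protein-coding genes, whose median length was 122 kb against 17.2 kb for all 21887 protein-coding genes. Genes over 100 kb were 110 of the 196 (56.1%), and 11.1% of all protein-coding genes. Such genes hold 59.4% of protein-coding gene-body sequence, and 109 of the 195 peaks (55.9%) lay in them, so the share followed the sequence available. Along the gene, in the 150 pairs whose strand was known, 5 equal sections from the 5′ to the 3′ end held 33, 29, 24, 37 and 27 peaks. The section next to the 5′ end was neither the fullest nor the emptiest.

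In 4 protein-coding genes 2 of the 416 peaks lay in the body. In Ctnnd1, which encodes a catenin that binds cadherins at cell contacts, they scored 69.96 and 115.09, and lay 48.1% and 29.5% of the way from the 5′ end. In Hpse2, a heparanase-like gene, they scored 85.04 and 85.49, each from 6 fragments, 65.3% and 8.88% of the way. In Mdga2, whose product is a membrane-anchored regulator of synapse formation, they scored 51.10 and 73.71, both in the 5′ part at 21.4% and 8.01%. In 2210408I21Rik they scored 74.69 and 82.39.

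Gene boundaries were reached by few peaks. The middle of 16 of the 416 lay within 1000 bp of either end of a protein-coding gene (3.85%, interval 2.21% to 6.17%). The same held for 6 both-caller peaks (1.69%, interval 0.623% to 3.64%) and for 2.85% of the whole adult MACS 1.4 list, and 2.93% of the sequence lies that close. With any annotated gene the counts were 28 (6.73%, interval 4.52% to 9.58%) and 22 (6.20%, interval 3.92% to 9.23%), beside 6.05% of the sequence. Both pairs of intervals overlap. Within 1000 bp of a transcript start of the promoter table, which here lacks chromosome 18, lay 8 of 399 peaks (2.01%, interval 0.870% to 3.91%) and 4 of 345 both-caller peaks (1.16%), beside 2.13% of the sequence. Within 10000 bp the counts were 85 (21.3%) and 63 (18.3%), beside 17.7% of the sequence.

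The 16 peaks at protein-coding boundaries met 17 genes, since 1 peak reached both Lbr and Dnah14. They had a median score of 70.7, and 4 of the 16 scored 80 or more. The 5′ end was the near end in 5 pairs, the 3′ end in 8, and in 4 the strand was not in the tables used here. No peak of the 16 overlapped an E16 peak, where the share over all 416 was 4.33%.

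**Figure D3:**
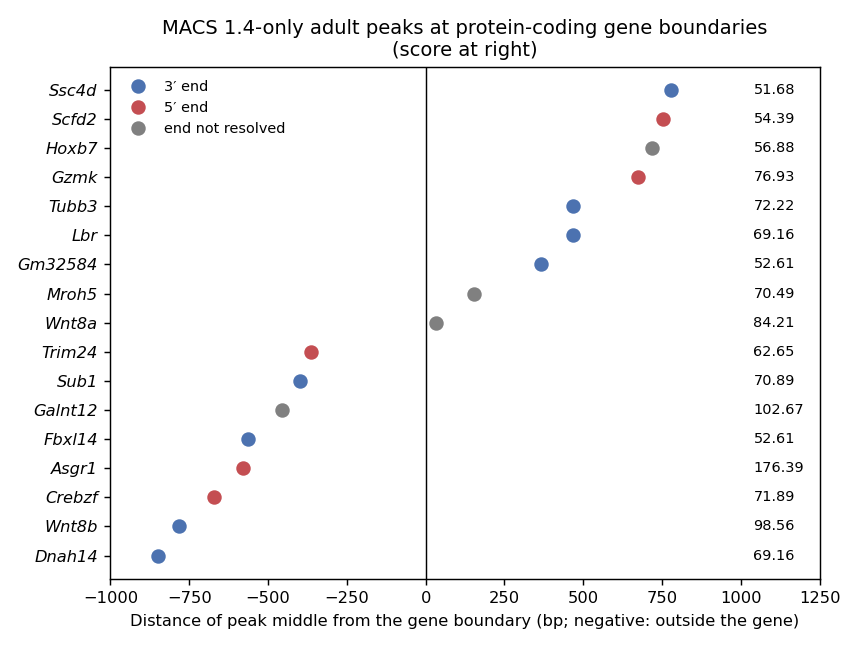
Distance in bp from the peak's middle to the boundary of each of the 17 protein-coding genes within 1000 bp, negative outside the gene, with the score at right. Colours give the near end: 5′ in red, 3′ in blue, not resolved in grey. Distances spread from 849 bp outside (Dnah14) to 778 bp inside (Ssc4d), and 13 of the 17 scores are below 80.

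Near 5′ ends, beside Asgr1, the peaks lay at Crebzf (71.89, 673 bp outside), a bZIP transcription factor gene, and Trim24 (62.65, 363 bp outside). Inside the gene were those at Gzmk (76.93, 673 bp), a granzyme gene of lymphocytes, and Scfd2 (54.39, 753 bp). The Gzmk peak rested on 5 fragments. Near 3′ ends, Wnt8b, a Wnt ligand gene, had a peak of 98.56 lying 784 bp outside, and Sub1, a transcription cofactor gene, one of 70.89 at 400 bp outside. Tubb3, which encodes the neuronal beta-tubulin commonly used as a neuron marker, had a peak of 72.22 at chr8:123421398-123421694, 469 bp inside its 3′ end.

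The remaining 3′ ends carried weaker peaks. The peak shared by Lbr, the lamin B receptor gene, and Dnah14, an axonemal dynein gene, scored 69.16, and lay 466 bp inside the first and 849 bp outside the second. Gm32584 and Fbxl14, an F-box gene, had peaks of 52.61, and Ssc4d one of 51.68. Where the end was not resolved, Galnt12, a gene for mucin-type glycosylation, had a peak of 102.67 lying 457 bp outside, and Wnt8a, another Wnt ligand gene, one of 84.21 lying 32 bp inside. Mroh5 had 70.49 and Hoxb7 had 56.88.

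Among the genes for MEIS proteins themselves, Meis2 held a weak peak. It scored 52.61, at chr2:115876131-115876651, 92.7% of the way along the 206 kb gene and 15.1 kb from its 3′ end. Meis1 and Meis3 had none nearby, with the closest of the 416 peaks at 3546 kb (66.92) and 1900 kb (73.79). Of the relatives and partners, Pknox2 had a peak of 74.39 in its body. The TALE homeobox list as a whole had 2 of its 18 genes with a peak in the body or within 10000 bp, and no both-caller peak. Over all protein-coding genes the share with one of the 416 peaks was 1.29%. Both TALE genes were long, Meis2 at 206 kb and Pknox2 at 256 kb, so the count is not read as a result about this family.

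The Hox genes, whose products bind DNA with MEIS and PBX, had 3 of 39 genes with such a peak, but the 3 share 1 peak. It scored 56.88, at chr11:96289273-96289619, inside Hoxb7 and 717 bp from its end. Hoxb6 was 3.37 kb and Hoxb8 4.12 kb away. No both-caller peak lay within 10000 bp of a Hox gene. Hox genes are short, with a median of 3.74 kb, and this absence is not read as a difference between the callers.

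Across 12 gene lists with 433 genes, 16 genes had one of the 416 peaks in the body or within 10000 bp, 11 had a both-caller peak, and 27 had a peak of either kind. Over all protein-coding genes 283 had one of the 416 peaks (1.29%). No such share is given here for both-caller peaks, so their absence from a list is not read as a result. The list genes are longer, with a median of 51.4 kb, and their count is not adjusted for length. None of the 16 genes' peaks overlapped an E16 peak, where the share over all 416 was 4.33%. The highest score among the 16 genes' peaks was 85.11.

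**Figure D4:**
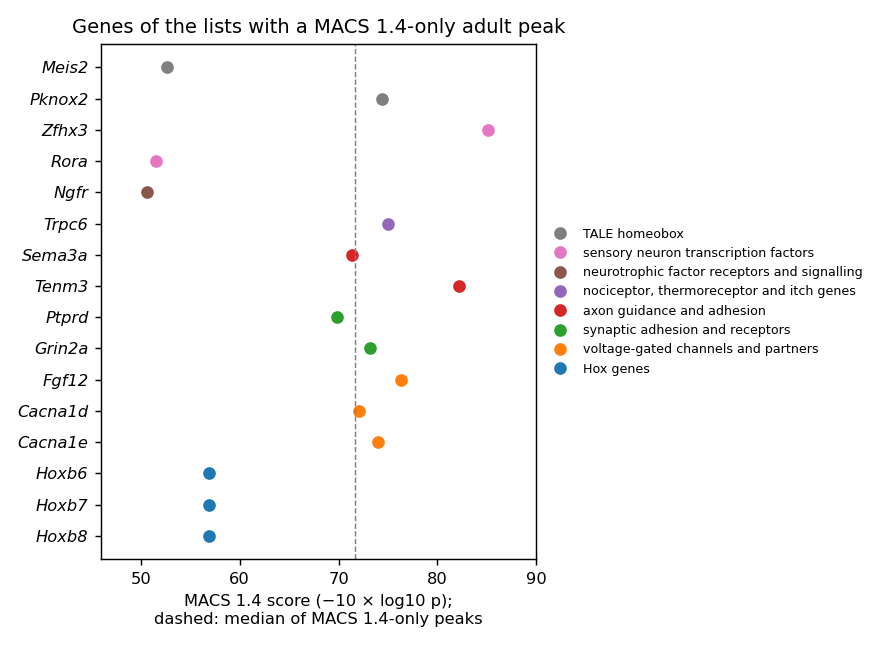
MACS 1.4 score of the peak in or within 10000 bp of each list gene, coloured by list, with the median of the 416 peaks, 71.7, as a dashed line. Scores run from 50.68 (Ngfr) to 85.11 (Zfhx3), and Hoxb6, Hoxb7 and Hoxb8 share 1 peak.

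Transcription factors of sensory neurons had 2 of 45 genes with a peak. Zfhx3, a large homeodomain and zinc finger factor gene, had a peak of 85.11 lying 1218 bp outside its 5′ end at chr8:108277842-108278345. Rora, a nuclear receptor gene, had one of 51.50 in its body, 96.7% of the way along the gene and over the start of Gm15511. Among receptors of neurotrophic factors and their signalling, 1 of 20 had a peak. Ngfr, the low-affinity receptor of nerve growth factor, had the peak of 50.68 already given, 1.78 kb from its 3′ end. This is within 1 score unit of the caller's limit.

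Of the genes of nociceptors, thermoreceptors and itch, 1 of 40 had a peak, Trpc6, a cation channel gene, with 75.04. The mechanoreceptor and proprioceptor list had 0 of 28. With a share of 1.29% over all protein-coding genes, this 0 is not read as a difference. Of axon guidance and adhesion genes, 2 of 54 had a peak. Sema3a, which encodes a repulsive guidance cue, had 71.34 in a gene of 479 kb, and Tenm3, a teneurin gene of 1297 kb, had 82.18. A both-caller peak was found at 5 genes of that list.

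Of synaptic genes, 2 of 67 had a peak, Grin2a, an NMDA receptor subunit gene, with 73.23, and Ptprd, a receptor phosphatase gene of synaptic adhesion, with 69.89. Of voltage-gated channels and their partners, 3 of 46 had a peak, and none had a both-caller peak. Fgf12, whose product binds sodium channels, had 76.37, Cacna1e 74.01 and Cacna1d 72.06, both encoding calcium channel pores. The Cacna1d peak lay 5.12 kb outside the 5′ end. Trpc6, Sema3a, Grin2a, Fgf12, Cacna1d and Cacna1e each rested on 5 fragments.

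Markers of satellite glia and Schwann cells had 0 of 20 genes with a peak, those of connective tissue, vessel, immune, muscle and blood cells 0 of 26, and ribosomal protein and translation genes 0 of 30. No both-caller peak lay at any of these lists either. Over all protein-coding genes 1.29% had one of the peaks described here, so 0 in lists of this size is not read as a difference. The median gene lengths of these lists were 13.1, 22.0 and 4.15 kb, against 17.2 kb for all protein-coding genes. The median was 451 kb in the synaptic list and 294 kb in the axon guidance list, and that of the channel list lay between them. Counts were not adjusted for length, so the contrast between these neuronal lists and the marker lists is not read as one of cell type. The TALE homeobox and Hox lists, with medians of 14.1 and 3.74 kb, also included genes with a peak. The TALE genes concerned, Meis2 and Pknox2, were long ones of 206 and 256 kb, and the 3 Hox genes shared 1 peak.

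Overlap with E16 drew on libraries that the choice of peaks did not use. An E16 peak of either caller overlapped 18 of the 416 peaks (4.33%, interval 2.58% to 6.75%), 44 both-caller peaks (12.4%, interval 9.15% to 16.3%) and 8.04% of the whole adult MACS 1.4 list. The intervals do not overlap. Without peaks that had another adult MACS 1.4 peak within 10000 bp, the shares were 14 of 411 (3.41%, interval 1.87% to 5.65%) and 27 of 334 (8.08%, interval 5.39% to 11.5%), whose intervals overlap slightly. Both-caller peaks also had the higher scores given above, and the part of score in this gap was not tested. The 18 peaks had a median score of 64.0, against 71.7 for the other 398. They were also wider, with a median of 582 bp against 439 bp. All 18 lay under an E16 MACS 1.4 peak, and 9 also under an E16 MACS2 peak. Of the 44 both-caller peaks, 41 lay under an E16 MACS2 peak. With E16 MACS2 peaks only, and again without peaks that had such a neighbour, the 416 gave 5 of 411 (1.22%, interval 0.396% to 2.82%). The both-caller peaks gave 24 of 334 (7.19%, interval 4.66% to 10.5%), and these intervals do not overlap. MACS2 also made the adult split, so this last comparison is not independent of the rule and nothing is concluded from it.

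**Figure D5:**
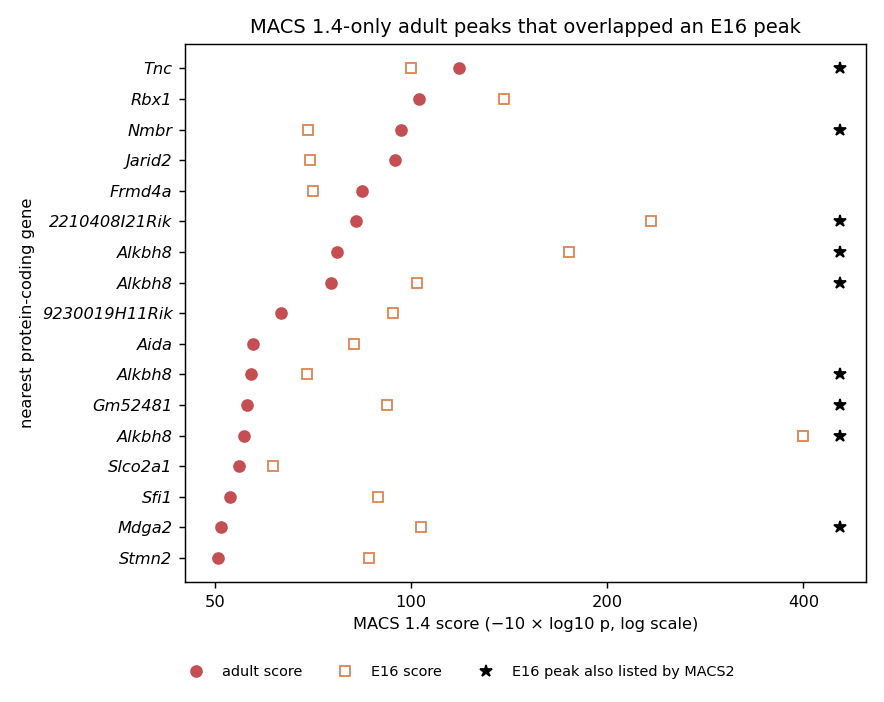
Adult score (filled circles) and E16 MACS 1.4 score (open squares) of 17 of the 18 peaks that overlapped an E16 peak, on a log axis, named by the nearest protein-coding gene. Stars mark the 9 whose E16 peak MACS2 also listed, and the adult score is the higher one in 4.

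The highest adult score of the 18 was 118.52, at chr4:64497878-64498535, where the E16 score was 100.07. It lay 451 kb from Tnc, the gene of the matrix protein tenascin C. Inside Rbx1, a ubiquitin ligase subunit gene, the adult score was 102.95 and the E16 score 138.97, with middles 4 bp apart. The peak nearest to Nmbr, a bombesin-type receptor gene, scored 96.41 in the adult from 7 fragments and 69.41 at E16, but lay 1175 kb away. Inside Jarid2, a gene of the Polycomb machinery, the scores were 94.61 and 70.02. Near Frmd4a, 53.1 kb away, they were 84.15 and 70.70. In these 5, chosen as the highest adult scores, the adult score was above the E16 score in 4.

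The other 13 had the higher score at E16, though scores at each age were called from separate libraries and are not on a common depth. Inside 2210408I21Rik they were 82.39 in the adult and 233.14 at E16. Inside Mdga2, the adult score of 51.10 stood beside 103.60. At Aida and Slco2a1, a prostaglandin transporter gene, the adult scores were 57.26 and 54.39, and the E16 scores 81.75 and 61.36. Inside Sfi1, a centrosome gene, a peak of 1038 bp scored 52.70 in the adult and 88.94 at E16. Its E16 peak was much wider, at chr11:3175057-3180437, with middles 436 bp apart. The peaks nearest to 9230019H11Rik (3.83 kb), Gm52481 on the Y chromosome (22.9 kb) and Stmn2 scored 63.21, 56.06 and 50.46 in the adult, and 93.86, 91.79 and 86.01 at E16.

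Of the 18, 4 came from 1 stretch at the start of chromosome 9, between positions 3020380 and 3038522, 297 to 315 kb from Alkbh8. Their adult scores were 77.00, 75.29, 56.83 and 55.35, and the E16 scores 174.47, 101.91, 69.08 and 400.13. All 4 E16 peaks were also listed by MACS2, with folds of 9.26, 5.50, 4.40 and 7.63. Each of the 4 had another adult MACS 1.4 peak within 10000 bp, and the stretch also held a both-caller peak of 1221.65. This crowding was not examined further, so the 4 are not read as separate sites found again at E16.

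These 4 were also the peaks closest to being left out by the rule. Adult MACS2 peaks lay 187, 461, 1010 and 1120 bp from them, in the order of the scores 75.29, 77.00, 56.83 and 55.35, and had folds of 7.36, 7.90, 3.85 and 7.90. The fifth was a peak of 97.49 near Hs3st3a1, with a gap of 5455 bp. Only 16 of the 416 had an adult MACS2 peak within 100000 bp, and the median distance was 2072 kb. On the other side of the rule, the smallest overlap of a both-caller peak was 163 bp, which is the narrowest MACS2 peak, and 154 both-caller peaks had it. The first 5 of these by position were nearest to Tfap2d (57.10), Raph1 (77.64), Cntnap5b (78.64), Cdh20 (77.10) and Kcnt2 (80.47). All 355 both-caller peaks held their MACS2 peaks wholly, so no peak was near the 1 bp limit.

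By chromosome, the 416 peaks made up 39.3% to 66.7% of the adult MACS 1.4 peaks of each autosome. On the X chromosome they were 5 beside 17 both-caller peaks (22.7%), and on the Y chromosome 3 beside 1 (75.0%). The sex of the animals is not stated in the labels.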

How the data were processed

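The submitters' processing notes name bcl2fastq 2.17, FastQC and the mm10 build. Which aligner was used, how duplicate and repeat-mapped reads were treated and what settings the callers had are not given in the sources used here. Each can change scores. Peaks of each age were called with MACS 1.4.2 and MACS2 2.1.1, per the submitters' processing notes. In the deposited MACS 1.4 lists each peak has a score, read here as the −log10 of the p-value multiplied by 10. In the deposited MACS2 lists it has a fold enrichment (a ratio) and −log10 p and q values. All of these are the authors' own values for each peak.

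Overlap meant at least 1 bp. Genes came from a RefSeq table of GRCm38.p6 with 49943 genes on assembled chromosomes, of which 17492 of the 21887 protein-coding ones had a strand in the promoter table. Exons, introns and peak sequences were not analysed here. Fragment numbers were sought as Poisson tails with a tolerance of 0.02 in score. Functions were tested on simulated data. Python 3.11.15, numpy 2.4.6, pandas 2.3.3, scipy 1.17.1 and matplotlib 3.10.9 were used.

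The peaks, the gene lists and the tests were chosen with earlier results of these data known. Named genes are those of the 15 highest and 5 lowest scores, of boundaries, of the lists (at most 6 each), of bodies with at least 2 peaks, of E16 overlaps (at most 15), of the peaks nearest the limit of the rule, and Meis1, Meis2 and Meis3. Foxj2, Mir7231, Gm40226 and Gm15511 were named after their values were seen, as were the E16 overlaps below the 15 highest. Some genes that this rule names are not reported here. Alternatives were other overlap rules, score and distance limits.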

Additional observations from a re-analysis of the deposited data

How the results depend on the processing

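Of 46 alternatives, 32 left the value within 1.5 times the reported one and 14 did not. Keeping the 208 peaks at or above the median score left 7 at protein-coding boundaries, 13 at any boundary, 109 inside any gene, 91 inside protein-coding genes, 13 far from genes, 8 overlapping E16 and 8 list genes, as fewer peaks were counted. A boundary limit of 500 bp gave 8 protein-coding and 17 boundaries of any gene, and one of 5000 bp gave 82 and 128. A limit of 50000 bp put 49 peaks far from genes. Treating a peak as shared only where MACS2 peaks covered at least 50% of it made a set of 518 peaks, of which 34 overlapped E16. With E16 peaks of MACS2 only, 9 did. No paired analysis was possible because each group holds 1 library. Depth also limits what can be read: 165 of the 416 peaks could be given a fragment number, and for 153 of these it was 5 or 6. No second library shows which peaks would be listed again.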
